A study of Mus musculus with 12 samples.

Results

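The 10 genes described here, Mup1, Mup2, Mup3, Mup7, Mup11, Mup12, Mup15, Mup17, Mup20 and Mup21, are major urinary protein (Mup) genes of the mouse. They were chosen by symbol alone, as 10 of the 22252 symbols listed for each liver library, and 12 further symbols of the same family were listed beside them. RNA was sequenced from liver, gastrocnemius muscle and gonadal white adipose tissue (WAT), with 4 libraries per tissue and 12 in all. All mice were males of the C57BL/6J strain, 8 weeks old when treatment began. GRf/f mice carried the floxed allele of the glucocorticoid receptor gene Nr3c1 without Cre, and GRmKO mice carried the same floxed allele with a Cre driven by the skeletal actin (Acta1) promoter, which acts in skeletal muscle fibers and leaves liver and fat cells untouched by design. For 4 weeks, each genotype drank water with 1% ethanol alone (vehicle) or 1% ethanol and 100 µg/mL corticosterone (CORT), the main glucocorticoid of mice. Each library was a pool of RNA from 3 mice, so each group was 1 library per tissue. No difference could therefore be tested between animals, and each comparison below is given as a ratio with a 95% interval that covers counting error only.

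Major urinary proteins are small lipocalins, barrel-shaped proteins that carry pheromones and other small lipids in a central pocket. The adult liver secretes them into blood, from which they pass into urine as scent marks. Their genes form a cluster of near copies on chromosome 4, and male mice express most of them more strongly than females because pulses of growth hormone, acting through the transcription factor STAT5, drive them in hepatocytes. Glucocorticoids and the glucocorticoid receptor are also known regulators of this hepatic program. Mup20 encodes darcin, a pheromone of male urine that attracts females.

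The 10 genes lay on the minus strand of chromosome 4 (GRCm38 build, GENCODE M21 annotation) between Mup7 at chr4:60066469-60070475 and Mup21 at chr4:62147932-62150863. In order of coordinate they were Mup7, Mup2, Mup1, Mup11, Mup12, Mup15, Mup17, Mup20, Mup3 and Mup21. Coding sequences of the transcripts paired with these symbols split the genes into 7 near copies and 3 more distant members. The 7 near copies, Mup1, Mup2, Mup7, Mup11, Mup12, Mup15 and Mup17, shared 98.3% to 99.6% of coding bases with each other. Mup20 shared 90.1% to 91.3% with them, Mup21 83.9% to 85.0% and Mup3 82.6% to 83.8%, while Mup3 and Mup21 shared 94.7% with each other.

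A stretch of 90 coding bases in exon 2 is printed to show how little separates the near copies and how far Mup20 and Mup3 stand from them. It is the gap-free window of that length with the most variable columns, 21, within 1 exon. Letters in capitals differ from Mup7, all sequences read 5′ to 3′ along the minus strand, and they were taken from the GENCODE M21 transcripts. Mup1, Mup2, Mup11 and Mup12 have the same letters as Mup15 here, and Mup21 the same as Mup3.
Mup7 (chr4:60069747-60069836): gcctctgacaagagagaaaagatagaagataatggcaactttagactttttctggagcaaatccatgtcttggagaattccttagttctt
Mup15 (chr4:61439079-61439168): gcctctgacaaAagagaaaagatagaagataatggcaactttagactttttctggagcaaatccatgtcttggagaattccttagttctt
Mup17 (chr4:61595207-61595296): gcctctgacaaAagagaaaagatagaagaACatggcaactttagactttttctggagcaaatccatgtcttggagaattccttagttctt
Mup20 (chr4:62053494-62053583): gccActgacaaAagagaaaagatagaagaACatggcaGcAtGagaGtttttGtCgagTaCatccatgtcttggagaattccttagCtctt
Mup3 (chr4:62086814-62086903): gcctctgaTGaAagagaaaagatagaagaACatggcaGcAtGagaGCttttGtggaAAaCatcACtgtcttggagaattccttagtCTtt

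Within this window Mup15 differed from Mup7 at 1 base, Mup17 at 3, Mup20 at 13 and Mup3 at 18. Over whole transcripts, between 66.3% and 72.2% of the 31-base words of Mup3, Mup20 and Mup21 occurred in no other protein-coding gene. For the 7 near copies that share was at most 13.8%, for Mup17, and it was 3.46% for Mup7, 1.56% for Mup1 and 0% for Mup15. How reads were divided among the 7 is therefore uncertain, Mup15 most of all, and their sum is the firmer value.

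**Figure D1:**
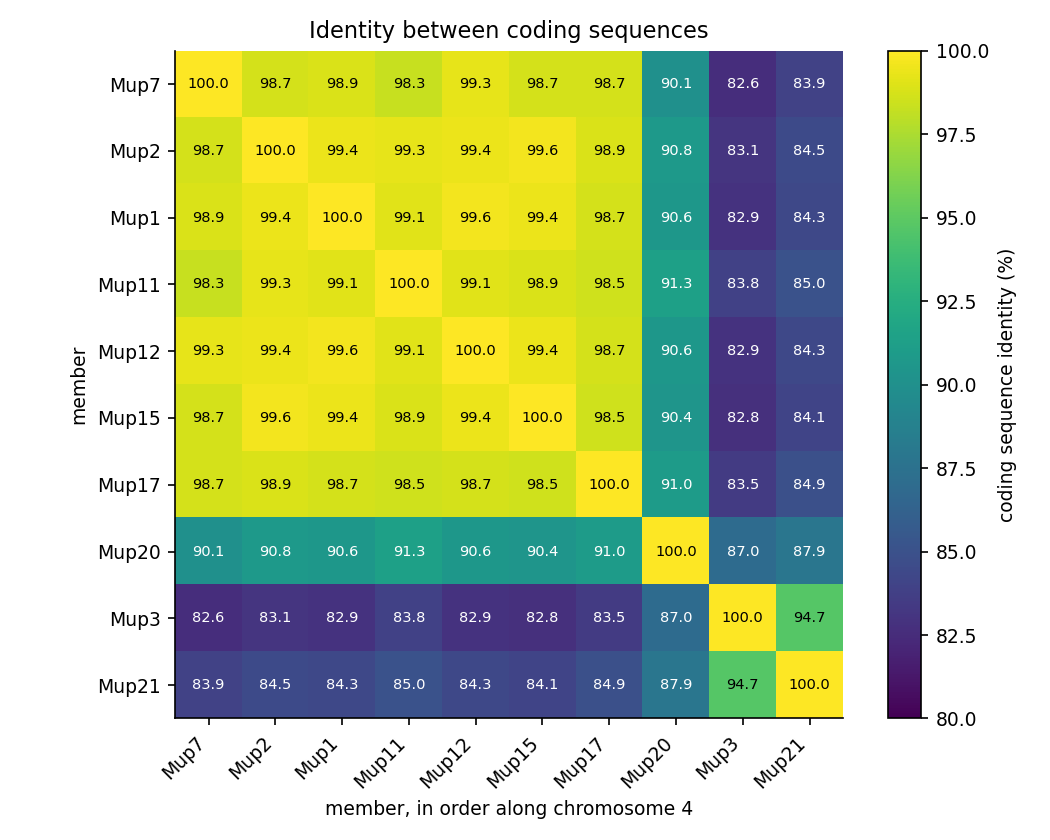
Percent identity between the coding sequences of each pair of members, in order along chromosome 4 on both axes. The 7 members at the upper left all share at least 98.3% with each other, and Mup20, Mup3 and Mup21 stand apart from them.

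Library totals ran from 19394572 to 20940660 estimated counts. Levels are given in CPM, which are counts scaled to a library total of 1000000. In gastrocnemius, Nr3c1 stood at 113 CPM in GRf/f vehicle, 90.4 in GRf/f CORT, 46.4 in GRmKO vehicle and 35.5 in GRmKO CORT. Thus 41.2% and 39.2% of the GRf/f level was left under vehicle and CORT. Cre removes part of Nr3c1, the exon of the DNA-binding domain, while these counts are for the gene as a whole. They therefore do not measure how much functional receptor transcript was left. All 20 hepatocyte markers were above 0 in all 4 liver libraries, with a summed 142231 to 207897 CPM, whereas 8 muscle markers summed to at most 7.14 CPM and 8 adipocyte markers to at most 23.0 CPM there. In bulk tissue, fewer cells of a type and less RNA per cell cannot be told apart.

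In vehicle-treated GRf/f liver the 10 members together made up 7.25% of all counts, and under CORT most of that was gone. Their summed level was 72458 CPM in GRf/f vehicle, 26615 in GRf/f CORT, 54649.7 in GRmKO vehicle and 24182 in GRmKO CORT. Both CORT livers were below both vehicle livers. The log2 ratio of CORT to vehicle, computed with 0.5 CPM added to both levels as are all log2 ratios here, was −1.44 in GRf/f (interval −1.45 to −1.44) and −1.18 in GRmKO (−1.18 to −1.17). Between genotypes, the summed level of GRmKO was lower than that of GRf/f by a log2 ratio of −0.41 under vehicle and −0.14 under CORT.

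Counting genes, 8 of the 10 members were lower by 2-fold or more with CORT in GRf/f liver and 0 were higher. Among all 12485 genes above 0 in the 4 liver libraries, 5.72% were lower by that much and 5.9% higher. In GRmKO liver 8 of 10 members were again lower, against 2.82% of all genes. The members' median log2 ratio was −2.15 in GRf/f and −2.65 in GRmKO, where the median over all genes was 0.0048 and 0.049. The genes short of 2-fold in both genotypes were Mup3 and Mup20.

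**Figure D2:**
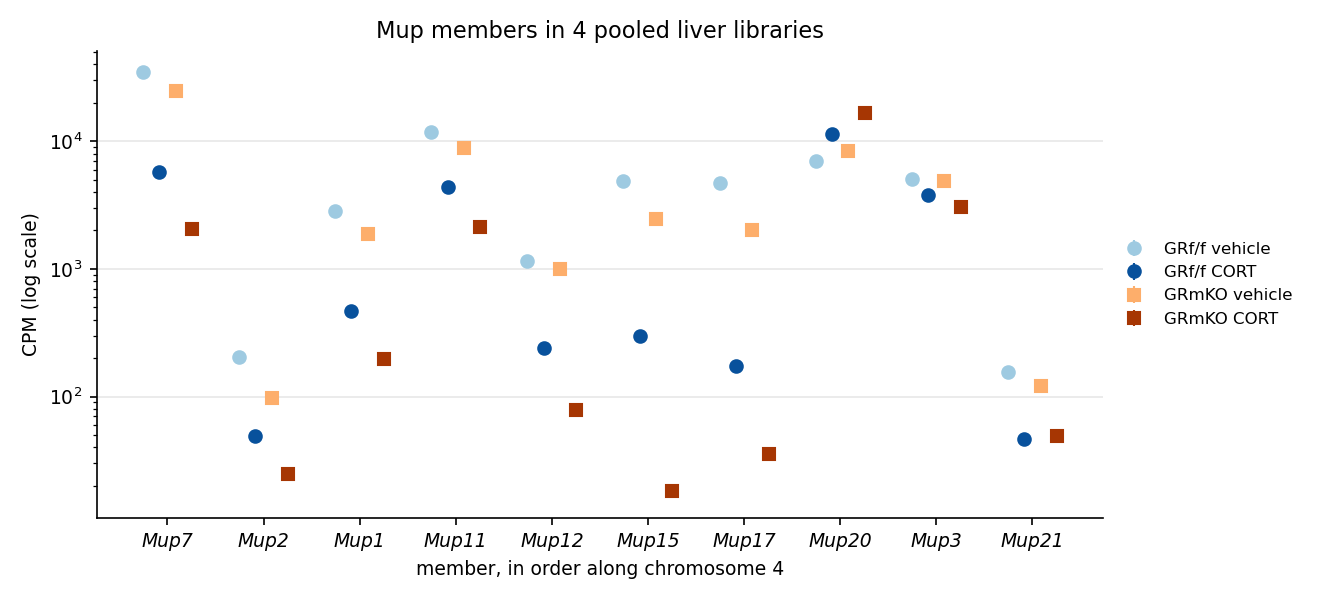
Level of each member in the 4 pooled liver libraries, in CPM on a log scale, with members in order along chromosome 4 and bars (mostly smaller than the symbols) for the 95% counting interval. For all members but Mup20 both CORT libraries lie below both vehicle libraries, and for Mup20 both lie above.

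Mup7 was the most abundant member of vehicle-treated liver, also per length, at 37467 CPM per kilobase of transcript in GRf/f. It was at 34732 CPM in GRf/f vehicle, 5710.0 in GRf/f CORT, 24907 in GRmKO vehicle and 2062 in GRmKO CORT. By count it was the gene ranked 3 of the whole liver library under vehicle in both genotypes, and it ranked 26 and 65 in the CORT livers of GRf/f and GRmKO. CORT left 16.4% of its vehicle level in GRf/f (log2 ratio −2.60, interval −2.61 to −2.60) and 8.28% in GRmKO (−3.59, −3.61 to −3.58).

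Mup11, the next most abundant near copy, kept more of its level. It stood at 11753 CPM in GRf/f vehicle, 4351 in GRf/f CORT, 8836 in GRmKO vehicle and 2139.7 in GRmKO CORT. The log2 ratios with CORT were −1.43 in GRf/f and −2.05 in GRmKO, the smallest fall among the near copies in GRf/f.

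The steepest changes were those of Mup15 and Mup17. Mup15 was at 4921 CPM in GRf/f vehicle, 298 in GRf/f CORT, 2468 in GRmKO vehicle and 18.2 in GRmKO CORT, a 16.5-fold difference in GRf/f and a 135-fold difference in GRmKO. Mup17 was at 4667, 174, 2031 and 35.4 CPM in the same order of libraries, 26.9-fold lower with CORT in GRf/f and 57.4-fold lower in GRmKO. Of 12485 genes, Mup15 had the lowest CORT ratio in GRmKO liver and Mup17 the next lowest, and in GRf/f liver 2 genes were lower than Mup17. Since Mup15 had no 31-base word of its own, its separate value rests on how the quantification divided shared reads.

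Mup1, Mup12 and Mup2 fell as well, from lower starting levels. Mup1 was at 2831 CPM in GRf/f vehicle, 466 in GRf/f CORT, 1885.5 in GRmKO vehicle and 197 in GRmKO CORT. Mup12 was at 1158, 242, 997 and 78.6 CPM in those libraries. Their order of libraries was the one seen for Mup7, with GRmKO CORT lowest. Mup2 was at 203, 49.1, 97.98 and 24.8 CPM, and its log2 ratio with CORT was about the same in GRf/f (−2.04, interval −2.15 to −1.95) and GRmKO (−1.96, −2.13 to −1.85).

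Mup20, the darcin gene, was the 1 member with a higher level under CORT. It was at 7024 CPM in GRf/f vehicle (95% interval 6988 to 7060.0), 11479 in GRf/f CORT (11433 to 11526), 8442 in GRmKO vehicle (8403 to 8482) and 16529 in GRmKO CORT (16474 to 16584). The CORT livers were 1.63-fold above vehicle in GRf/f and 1.96-fold in GRmKO, both short of the 2-fold line. Counting Mup20 itself, 1293 of 12485 genes had a CORT ratio at least as high in GRf/f liver, and 380 in GRmKO liver. GRmKO livers were above GRf/f livers under vehicle (log2 ratio 0.27) and under CORT (0.53). Per kilobase, Mup20 ranked 3 among the members in both vehicle livers and 1 in both CORT livers, and by count it was the gene ranked 6 of the whole GRmKO CORT liver library.

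Mup3 had the log2 ratios with CORT closest to 0 in both genotypes (−0.40 and −0.67). Its levels were 5014 CPM in GRf/f vehicle, 3799 in GRf/f CORT, 4865 in GRmKO vehicle and 3048 in GRmKO CORT, so 75.8% and 62.7% of the vehicle level was present under CORT. Mup21, its closest relative in sequence, was far rarer, at 228 CPM per kilobase in GRf/f vehicle against 5345 for Mup3. Its levels were 155, 46.6, 120 and 49.6 CPM in the same order of libraries. With CORT it was 3.32-fold lower in GRf/f and 2.42-fold lower in GRmKO. The sequence groups therefore did not map onto the responses one to one: within the pair of close relatives Mup3 and Mup21, 1 passed 2-fold in both genotypes and 1 in neither.

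**Figure D3:**
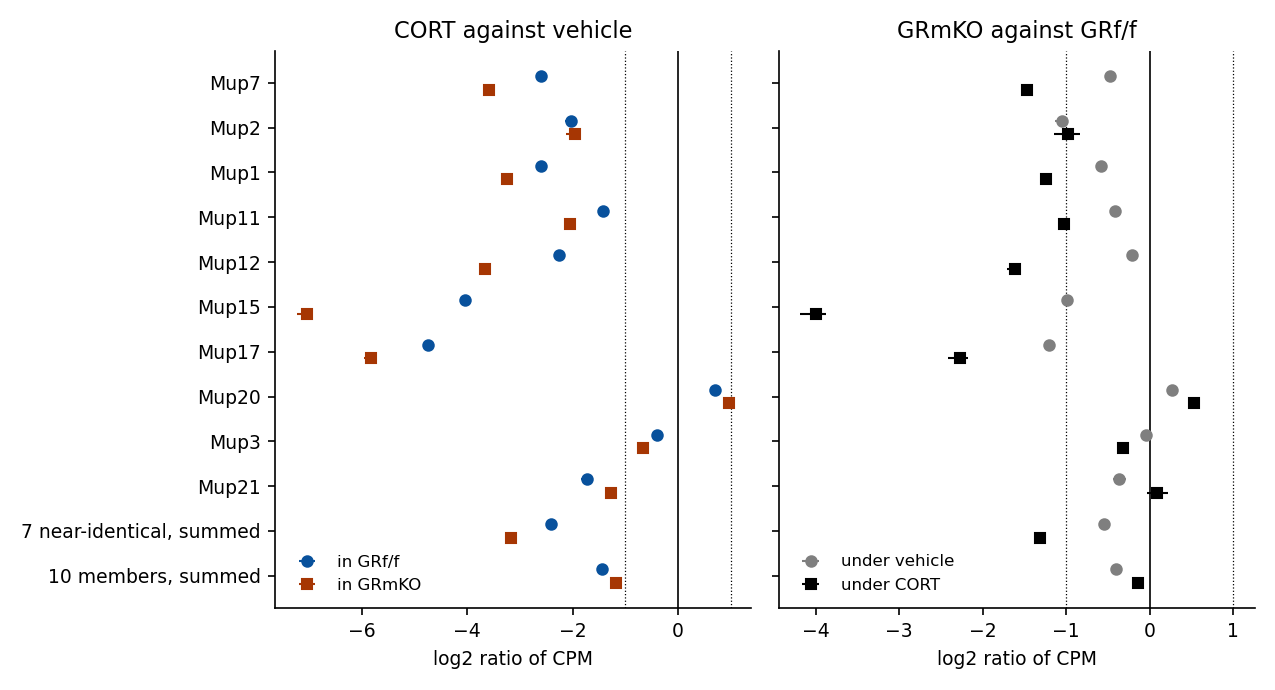
Log2 ratios of CPM in liver for each member and for 2 sums, on the left CORT against vehicle in each genotype and on the right GRmKO against GRf/f under each treatment, with 95% counting intervals and dotted lines at a 2-fold change. Mup15 under CORT in GRmKO lies farthest to the left, at −7.04, and Mup20 lies to the right of 0 in all 4 comparisons.

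As these changes were unequal, the make-up of the members' counts shifted. Mup7 held 47.9% of the members' counts in GRf/f vehicle liver, 21.5% in GRf/f CORT, 45.6% in GRmKO vehicle and 8.53% in GRmKO CORT. Mup20 held 9.69%, 43.1%, 15.4% and 68.4% in those libraries. Under CORT, Mup20 was thus the largest part of the sum in both genotypes, and the other 9 members together were at 15136 CPM in GRf/f and 7653 CPM in GRmKO, down from 65434 and 46208 CPM under vehicle.

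The crossed design asks whether the liver differs when the receptor is lost in muscle. In the sample list the GRf/f livers are numbered apart from all other samples, the GRmKO livers included. Whether the livers of both genotypes were prepared and sequenced together is not given in the sources used here. Under vehicle, 2 members, Mup2 and Mup17, were lower in GRmKO than in GRf/f by 2-fold or more, with log2 ratios of −1.05 and −1.20, and 0 were higher. Among all genes 1.04% were that much lower and 1.26% higher. Mup15 stood just short of the line at −0.995. Under CORT, 6 members were lower in GRmKO, Mup1, Mup7, Mup11, Mup12, Mup15 and Mup17, and 0 were higher, against 2.27% of all genes lower and 2.44% higher. Mup2 stood just short of the line at −0.97. The members' median log2 ratio was −0.45 under vehicle and −1.13 under CORT.

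Taken member by member, the CORT ratio was lower in GRmKO than in GRf/f by more than 1 on the log2 scale for Mup15 (a difference of −3.0), Mup12 (−1.40) and Mup17 (−1.08). For Mup7 the difference was −0.99, for Mup1 −0.65 and for Mup11 −0.61. Mup20 (0.26), Mup21 (0.45) and Mup2 (0.076) had the opposite sign. None of these differences could be tested with 1 pool per group.

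The sign of this difference for the family as a whole depended on which genes were added up. For the 10 members summed, the CORT log2 ratio in GRmKO minus that in GRf/f was 0.27, a smaller fall in GRmKO. For the 7 near copies it was −0.76, a larger fall in GRmKO. Mup20, which is in the larger sum alone, is the member with the highest CORT level in both genotypes. The 7 near copies were at 60265 CPM in GRf/f vehicle, 11290.3 in GRf/f CORT, 41223 in GRmKO vehicle and 4555 in GRmKO CORT. Their CORT log2 ratios were −2.42 in GRf/f (interval −2.42 to −2.41) and −3.18 in GRmKO (−3.19 to −3.17). This split by sequence was drawn up after the members' values had been seen.

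Reads of the near copies could also have been assigned to the 12 Mup symbols that are not members, 8 of which share at least 98% of coding bases with Mup7. Those 12 held 44.2% to 52.5% of all counts of the 22 Mup symbols in the liver libraries. With CORT, 8 of the 12 were lower by 2-fold or more in GRf/f and 9 in GRmKO, and 0 were higher in either. The share of all genes lower by that much was 5.72% in GRf/f and 2.82% in GRmKO. Adding the 8 to the 7 near copies gave 15 symbols with a sum of 118595 CPM in GRf/f vehicle, 40705 in GRf/f CORT, 89359 in GRmKO vehicle and 23719 in GRmKO CORT. The CORT log2 ratio of that sum was −1.54 in GRf/f and −1.91 in GRmKO, and the genotype ratio was −0.41 under vehicle and −0.78 under CORT. All 22 symbols together made up 13.1% of counts in GRf/f vehicle liver, 5.6% in GRf/f CORT, 10.3% in GRmKO vehicle and 4.34% in GRmKO CORT, with nearly equal CORT log2 ratios of −1.22 and −1.25.

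Other genes of the same hepatic program were read from lists. Of 22 genes known to be higher in male than in female liver, 12 were lower with CORT by 2-fold or more in GRf/f and 14 in GRmKO. None was higher in either, and the medians were −1.12 and −1.18 on the log2 scale. Among all genes, 5.72% were lower in GRf/f and 2.82% in GRmKO, with medians of 0.0048 and 0.049. Serpina1e, a serine protease inhibitor of the alpha-1-antitrypsin family, was at 7398 CPM in GRf/f vehicle, 2958 in GRf/f CORT, 5449 in GRmKO vehicle and 2383 in GRmKO CORT. Cyp7b1, an oxysterol hydroxylase of bile acid synthesis, was at 514, 113, 268 and 93.8 CPM. Cyp4a12a, a fatty acid hydroxylase, and C8b, a chain of complement component C8, had CORT log2 ratios of −1.71 and −1.43 in GRf/f and −1.34 and −1.05 in GRmKO.

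Genes known to be higher in female liver went up more often than down. Of 22 listed, 13 were above 0 in all 4 libraries. With CORT 10 of these were higher by 2-fold or more and 1 lower in GRf/f, and 9 higher and 0 lower in GRmKO. Among all genes, 5.9% were higher and 5.72% lower in GRf/f, and 2.8% higher and 2.82% lower in GRmKO. Sult1e1, an estrogen sulfotransferase, was at 0.191 CPM in GRf/f vehicle, 324 in GRf/f CORT, 0.193 in GRmKO vehicle and 137 in GRmKO CORT. Cyp2b10, a drug-metabolizing oxidase, was at 3.30, 877, 6.10 and 362 CPM. Cyp17a1, an enzyme of steroid synthesis, was at 1.53, 279, 3.87 and 248 CPM, and Cyp4a10 at 471, 1396, 584 and 899.7 CPM. The 1 lower gene was Abcd2, a peroxisomal fatty acid transporter (log2 ratio −1.08 in GRf/f), which is named after its value was seen. The other 9 of the 22 were at 0 in at least 1 library.

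Among 13 genes of the growth hormone axis, 11 were above 0 in all 4 libraries. With CORT, 3 were lower by 2-fold or more in GRf/f and 1 in GRmKO, and 0 were higher. Among all genes, 5.72% in GRf/f and 2.82% in GRmKO were lower by that much, and 5.9% and 2.8% higher. Socs2, a feedback inhibitor induced by growth hormone, was at 10.7 CPM in GRf/f vehicle, 1.80 in GRf/f CORT, 10.9 in GRmKO vehicle and 9.27 in GRmKO CORT. Cish, another such inhibitor, was at 14.2, 2.98, 19.6 and 10.8 CPM, and Egfr, the epidermal growth factor receptor, at 471, 109, 267 and 183 CPM. The 1 gene lower in GRmKO was Bcl6, a transcriptional repressor of the axis, at a log2 ratio of −2.55, and it is named after its value was seen. Between the CORT livers, 2 genes of this list, Socs2 and Cish, were higher by 2-fold or more in GRmKO than in GRf/f. In the same comparison 1, Bcl6, was lower, and the median log2 ratio was 0.45. Among all genes 2.44% were higher and 2.27% lower, with a median of 0.072. Socs2 and Cish are named here for their low level in GRf/f CORT, so that this direction is in part fixed by the choice.

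The other lists moved less evenly. Of 10 nuclear receptors, 1 was lower with CORT by 2-fold or more in GRf/f and 1 higher, against 5.72% and 5.9% of all genes. The lower one was Ppara, a lipid-sensing receptor (32.4 to 13.0 CPM). Of 13 hepatocyte transcription factors, 4 were lower with CORT in GRf/f and 0 higher, against 5.72% and 5.9% of all genes. In GRmKO, Dbp and Foxa3 were lower and 1 factor was higher, against 2.82% of all genes lower and 2.8% higher. The 4 in GRf/f included Dbp, a clock-controlled factor, at 124 CPM in GRf/f vehicle, 2.97 in GRf/f CORT, 74.1 in GRmKO vehicle and 31.6 in GRmKO CORT, and Cebpb at 167, 42.5, 159.5 and 87.7 CPM. The other 2 were Foxa3 (34.5 to 16.3 CPM in GRf/f) and Onecut1 (24.9 to 10.1 CPM). Of 8 tested lipocalins outside the Mup family, 2 were higher in both genotypes and 0 lower, against 5.9% of all genes higher in GRf/f and 2.8% in GRmKO. They were Lcn2, an iron-scavenging acute-phase protein (4.80 to 196 CPM in GRf/f), and Orm3, an acute-phase orosomucoid (4.01 to 32.9 CPM in GRf/f).

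The liver genes with the pattern most like that of the summed members were sought among the 6033 other genes with a mean of at least 10 CPM, by the root mean square difference over 3 log2 ratios to GRf/f vehicle. C8b was nearest (0.055), followed by Serpina1e (0.079), F11, which encodes coagulation factor XI (0.15), the carboxylesterase gene Ces3a (0.17) and Tlcd2 (0.18). C8b and Serpina1e were also on the list of male-biased genes. The 3 ratios of C8b were −1.43, −0.49 and −1.53 for GRf/f CORT, GRmKO vehicle and GRmKO CORT, beside −1.44, −0.41 and −1.58 for the summed members. The sum joins members that fell with CORT to Mup20, which rose and held 68.4% of it in GRmKO CORT. The 7 near copies alone were at −2.42 for GRf/f CORT and −0.55 for GRmKO vehicle. Other Mup symbols in the ranking lay farther from the sum, between ranks 54 and 5845 of 6033. With 4 libraries such likeness is a description of these pools.

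Outside liver, Mup reads were rare. In gastrocnemius the summed members were at 5.21 CPM in GRf/f vehicle (interval 4.28 to 6.30), 2.0 in GRf/f CORT (1.47 to 2.75), 34.4 in GRmKO vehicle (31.9 to 37.0) and 62.0 in GRmKO CORT (58.7 to 65.5). Both GRmKO muscle libraries were above both GRf/f ones, with log2 ratios of 2.61 under vehicle and 4.65 under CORT. The CORT ratio was −1.19 in GRf/f and 0.84 in GRmKO. Only Mup7 and Mup20 were above 0 in all 4 muscle libraries, and both were higher in GRmKO by 2-fold or more under each treatment, against 4.59% and 4.4% of all genes tested in muscle.

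**Figure D4:**
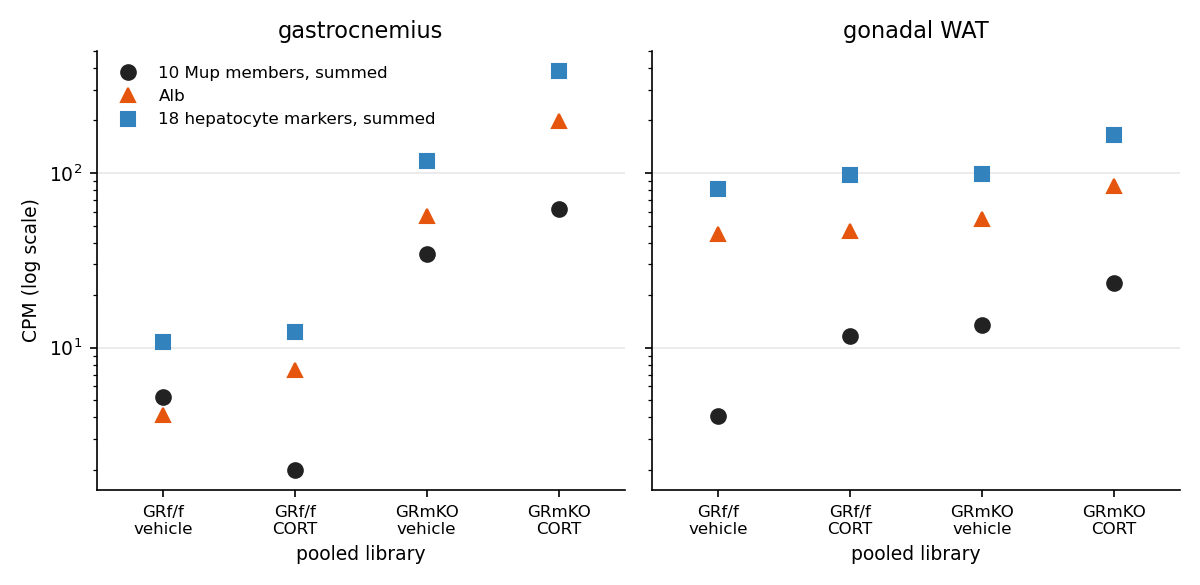
Summed CPM of the 10 Mup members, CPM of Alb and summed CPM of 18 hepatocyte markers (Alb included, Trf and Cyp2e1 left out) in the gastrocnemius and gonadal WAT libraries, on a log scale. In gastrocnemius all 3 are higher in the GRmKO libraries, with the members at 34.4 and 62.0 CPM there.

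The summed level of the hepatocyte markers was also higher in the GRmKO muscle libraries, and higher with CORT in GRmKO, whereas with CORT in GRf/f it was higher and the Mup sum lower. Of the 20 markers, 17 were above 0 in each GRf/f muscle library and 20 in each GRmKO one. Their summed level was 86.9 CPM in GRf/f vehicle, 155 in GRf/f CORT, 219 in GRmKO vehicle and 563 in GRmKO CORT, and without Trf and Cyp2e1, whose levels in WAT reached 2990.4 and 5824 CPM and which were set aside after these values were seen, it was 10.7, 12.3, 118 and 385 CPM. The markers at 0 were Apoa2 and Itih4 in both GRf/f libraries, with Apoc3 in the vehicle one and Apob in the CORT one. Alb, which encodes serum albumin, was at 4.13, 7.47, 56.4 and 198 CPM. Of 16 markers tested in muscle, 14 were higher in GRmKO by 2-fold or more under vehicle and 15 under CORT, and 0 were lower. Their part in the Mup values of muscle was not tested.

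Set beside liver of the same group, the summed members in muscle were at 0.0072%, 0.0075%, 0.063% and 0.256% of the liver level in GRf/f vehicle, GRf/f CORT, GRmKO vehicle and GRmKO CORT. Alb was at 0.0083%, 0.0090%, 0.0792% and 0.178% of its liver level. Mup20 made up 5.83% of the members' counts in GRf/f vehicle muscle (interval 2.70% to 12.1%), 36.3% in GRf/f CORT (22.7% to 51.6%), 15.3% in GRmKO vehicle (12.9% to 18.2%) and 67.8% in GRmKO CORT (65.1% to 70.3%). For Mup20 the muscle intervals held the liver share of the same group, 9.69%, 43.1%, 15.4% and 68.4%, in all 4 groups. Other members did not all do so. The Mup3 interval in muscle was 15.4% to 31.3% in GRf/f vehicle, against a liver share of 6.92%. It was 0% to 8.97% against 14.3% in GRf/f CORT, and 8.74% to 12.1% against 12.6% in GRmKO CORT. In GRmKO vehicle it held the liver share of 8.90%. The Mup7 interval held the liver share in GRf/f vehicle only. Whether the muscle and liver pools came from the same mice is not given in the sources used here.

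**Figure D5:**
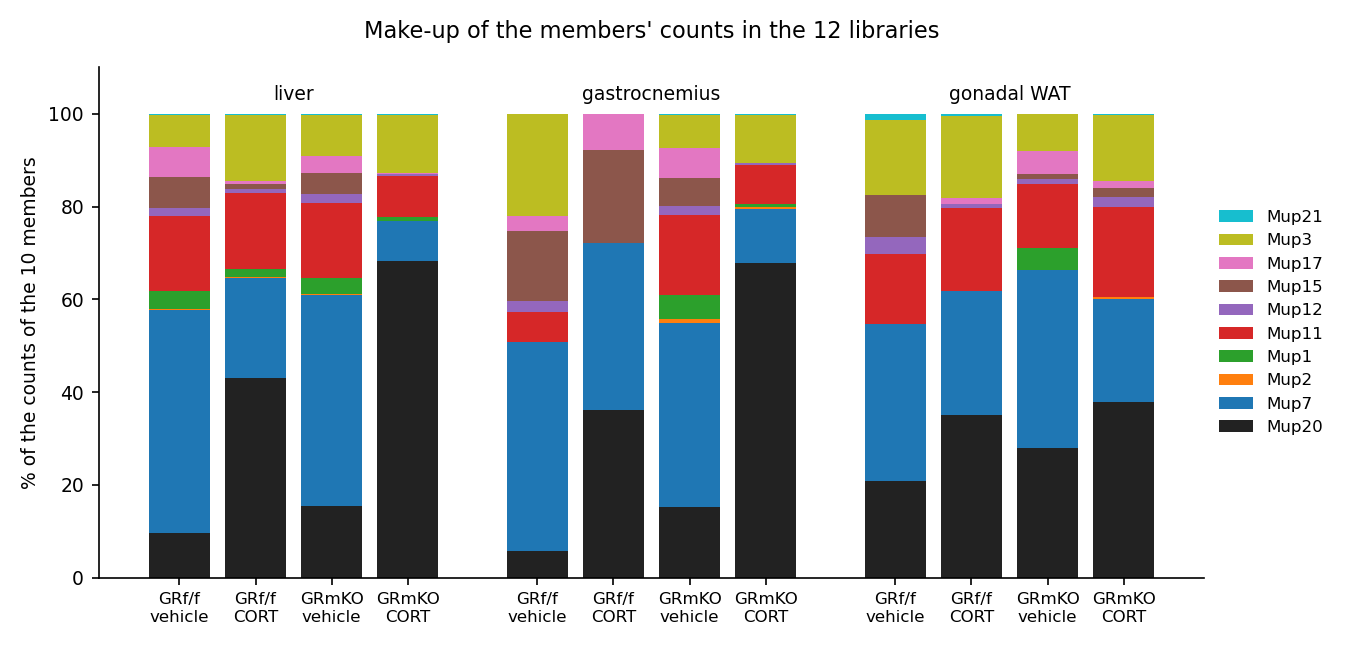
Share of each member in the counts of the 10 members, in percent, for the 12 pooled libraries, with Mup20 at the bottom in black. In each tissue the Mup20 share is lowest in GRf/f vehicle and highest in GRmKO CORT. The highest share is 68.4% in liver and 67.8% in gastrocnemius, and in gonadal WAT the range is narrower, from 20.9% to 37.9%.

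In gonadal WAT the summed members were at 4.08 CPM in GRf/f vehicle (interval 3.27 to 5.04), 11.7 in GRf/f CORT (10.3 to 13.3), 13.5 in GRmKO vehicle (11.99 to 15.2) and 23.6 in GRmKO CORT (21.6 to 25.8). The order of the libraries was unlike that in liver, with GRf/f vehicle lowest and GRmKO CORT highest. The CORT log2 ratios were 1.42 in GRf/f and 0.78 in GRmKO, and those of GRmKO against GRf/f were 1.61 under vehicle and 0.98 under CORT. Of the members, 5 were above 0 in all 4 WAT libraries, and Mup3, Mup11 and Mup20 were higher with CORT by 2-fold or more in each genotype, against 5.49% and 3.47% of all genes. Alb was at 44.7, 46.8, 54.2 and 84.8 CPM in those libraries, so it differed less between them than the Mup sum did. The Mup20 share was 20.9% (13.5% to 31.1%), 35.2% (29.3% to 41.5%), 28.0% (23.0% to 33.8%) and 37.9% (33.7% to 42.4%). Its interval did not hold the liver share of the same group in any of the 4 groups.

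Single members outside liver rested on few counts. Mup1 and Mup2 were at 0 in both GRf/f libraries of muscle and of WAT, where a count of 0 allows up to 0.15 CPM. Mup15, at 18.2 CPM in GRmKO CORT liver, was at 0 in the muscle of that group and at 2.08 CPM in GRmKO vehicle muscle. Mup20 in muscle was at 0.303 CPM in GRf/f vehicle, 0.724 in GRf/f CORT, 5.26 in GRmKO vehicle and 42.0 in GRmKO CORT.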

How the data were processed

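RNA-seq libraries were sequenced as 100-base paired reads. The deposited values are expected counts, which the authors made with Salmon 1.2.1 (protein-coding transcripts of GENCODE M20, mm10) and tximport in R 3.5.0, scaled by length and abundance. Repeated symbols were reduced by the authors to the row of highest total. Each symbol is paired with 1 transcript, the same in the 3 tissues for all members. Such quantification divides reads shared by near copies by a model, so single near copies are less certain than sums.

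Counts were divided by the library total to give CPM. Log2 ratios used CPM plus 0.5, and a gene was called at 2-fold or more. Genes tested were above 0 in all 4 libraries of a tissue, the filter of the study. Intervals of 95% (Wilson for levels and shares, exact Clopper-Pearson for ratios, on counts rounded to whole numbers and without the 0.5 CPM) cover counting error only, and a count of 0 allows up to 3 counts. With 1 pool per group there is no p-value. The study's tool for differential expression simulates technical replicates and was not used. The fold rule and intervals were tested on simulated data. TMM (edgeR 4.0.16) and median-of-ratios (DESeq2 1.42.0) scaling, other pseudocounts, filters, folds and sums were tried as alternatives. Coding identity came from global alignment, and the 31-base words from GENCODE M21. Members, lists and rules were chosen with earlier results of these data known. The text names all members, other Mup symbols by count, the 5 genes nearest in pattern, and per list up to 4 of the most abundant genes called with CORT in GRf/f. Python 3.11.15 with pandas 2.3.3 and scipy 1.17.1 was used. Some results on the lists of nuclear receptors and hepatocyte transcription factors are not reported here.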

Additional observations from a re-analysis of the deposited data

Results flagged for a closer look

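The CORT log2 ratio of the summed members in gastrocnemius had opposite signs in the 2 genotypes, −1.19 in GRf/f and 0.84 in GRmKO, each with a counting interval off 0. The same sum also moved in opposite directions in different tissues. With CORT in GRf/f it was −1.44 in liver and −1.19 in gastrocnemius but 1.42 in gonadal WAT. In GRmKO it was −1.18 in liver but 0.84 in gastrocnemius and 0.78 in gonadal WAT. For GRmKO against GRf/f it was −0.41 in liver under vehicle but 2.61 in gastrocnemius and 1.61 in gonadal WAT, and −0.14 in liver under CORT but 4.65 and 0.98 in those tissues. With 1 pool per group, none of these differences was tested.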

How the results depend on the processing

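No paired analysis was possible because each group is 1 pooled library with no replicate numbers. For the summed members in liver, the values below are in the order CORT in GRf/f, CORT in GRmKO, genotype under vehicle and genotype under CORT. TMM factors gave log2 ratios of −1.45, −1.24, −0.43 and −0.22, and median-of-ratios factors −1.45, −1.24, −0.43 and −0.22. With the library total taken without the members, they were −1.51, −1.22, −0.43 and −0.14. All 22 symbols gave −1.22, −1.25, −0.35 and −0.37. Without Mup7, the member with the largest mean, they were −0.85, −0.43, −0.34 and 0.082, so the genotype ratio under CORT changed sign. The following sums were chosen after seeing the data. The 7 near copies gave −2.42, −3.18, −0.55 and −1.31, the 15 near-identical symbols −1.54, −1.91, −0.41 and −0.78, and the 9 members other than Mup20 −2.11, −2.59, −0.50 and −0.98. The difference of the CORT ratio between genotypes, 0.27 for the 10 members, was 0.21 with TMM, 0.22 with median-of-ratios factors, 0.29 without the members in the total and 0.42 without Mup7. It turned to −0.023 for 22 symbols, −0.76 for the 7 near copies, −0.37 for 15 symbols and −0.48 without Mup20. These turns follow from which genes enter the sum. In gastrocnemius the CORT ratio in GRmKO was 0.99 with TMM. The count of members called in the genotype comparison under vehicle was 4 at 1.5-fold and 0 at 4-fold, and under CORT 2 at 4-fold, all lower. Over 120 values of single members in liver under other scalings and pseudocounts, 0 changed sign and 4 crossed the 2-fold line: Mup15 under vehicle and Mup2 under CORT, both GRmKO against GRf/f, were past it with either scaling. Depth was no limit in liver, where the rarest member value was 18.2 CPM, but outside liver single members rested on few counts.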
